A study of Homo sapiens with 6 samples.

Results

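The widest binding regions of LSD1 were examined in NCI-H526, an established human line of small cell lung cancer. LSD1, also named KDM1A, is a demethylase that removes methyl groups from mono- and dimethylated lysine 4 of histone H3. The peaks were chosen by their deposited start and end in the LSD1 list with DMSO: an end minus start of 2000 bp or more made a wide peak. Of 45188 LSD1 peaks with DMSO, 1210 were wide (2.68%), and they held 3.20 Mb of the 28.2 Mb covered by the list (11.4%). The study mapped proteins and marks by chromatin immunoprecipitation and sequencing (ChIP-seq), with 1 library per group. The groups used were LSD1 after the LSD1 inhibitor GSK2879552 (called GSK552 in the labels; 1 µM for 24 hours), LSD1 with DMSO, the vehicle, and the histone marks H3K4me2 and H3K4me1, each with DMSO. All groups were the same cell line grown in RPMI with serum, the labels give its passages only as multiple, and the time in DMSO is not given. The input libraries were not used here, and the series holds no library of histone marks after inhibitor.

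LSD1 is a flavin-dependent enzyme that works in the CoREST complex and is brought to DNA by transcription factors such as those of the GFI1 family. Its substrates mark regulatory DNA: H3K4me1 is common around enhancers, and H3K4me2 is found at enhancers and beside active promoters. GSK2879552 binds irreversibly to the flavin cofactor of LSD1. Broad LSD1 peaks can arise where several nearby sites are joined by the peak caller into a single interval. Width is the extent of a called stretch and is not a direct measure of its strength.

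There were no replicates, so the LSD1 lists are compared as single libraries and no p-value is given. Shares are given with 95% Wilson intervals, differences of shares with Newcombe intervals and medians with binomial order-statistic intervals. All of these cover counting error only, and peaks close together share their signal. The sources used here give no read depth. Positions are on hg19 and are counted from 1. Each peak's fold enrichment and −log10 q come from the authors and are read within a list only.

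Wide peaks were wide by the rule, and the following values from the same list are a description. Their median width was 2423 bp (2385 to 2452), with a range of 2000 to 10690 bp, and 235 of them reached 3000 bp. Peaks under 2000 bp had a median width of 458 bp. The median fold enrichment was 3.92 for wide peaks and 3.60 for narrower peaks, and the median −log10 q was 2.84 and 1.93. A −log10 q of 2 or more was reached by 81.9% of wide peaks and 47.1% of narrower peaks, so wide peaks were more often strongly called. Strength and width were still not the same ranking. Among the 1000 highest-scoring of all 45188 LSD1 peaks, 88 were wide, while wide peaks were 2.68% of all LSD1 peaks. Wide peaks were thus over-represented there, but these 88 were only 7.27% of the 1210 wide peaks. Just inside the limit, at 2000 bp, lay chr12:54038978-54040977, chr5:180616925-180618924 and chr6:147881297-147883296, with folds of 3.61, 3.76 and 4.12. Just outside, at 1999 bp, lay chr20:61425428-61427426, chr20:9048482-9050480 and chr9:80850252-80852250, with folds of 4.03, 3.58 and 3.58. All of these 6 met H3K4me2.

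Wide peaks were found on chromosomes 1 to 22 and X. They formed the largest share of a chromosome's LSD1 peaks on chromosome 11, at 4.08% (3.42 to 4.87%), with 117 of 2867. Chromosomes 20 and 17 followed with 4.07% and 3.84%. The lowest shares among these chromosomes were 1.33% (0.778 to 2.26%) on chromosome X and 1.42% (0.999 to 2.03%) on chromosome 4. Another LSD1 peak with DMSO lay within 10 kb of 65.9% of wide peaks (63.1 to 68.5%), against 55.5% (54.3 to 56.7%) of peaks of 1000 to 2000 bp and 48.0% of peaks under 1000 bp. Another wide peak lay within 10 kb of 92 of the 1210 wide peaks (7.60%) and within 100 kb of 344 (28.4%). No background was computed for these shares, so it was not tested whether wide peaks are grouped or scattered. The densest group was at chr20:55990989-56051019, where 7 wide peaks stood among 20 LSD1 peaks over 60031 bp. A group of 4 lay at chr1:33339946-33368346 and one of 3 at chr16:85590845-85613691.

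Nearly all wide LSD1 peaks lay on methylated H3K4. H3K4me2 was met by 1113 of 1210 wide peaks (92.0%, 90.3 to 93.4%), against a background of 50.4% over all LSD1 peaks with DMSO. H3K4me1 was met by 950 (78.5%, 76.1 to 80.7%), with a background of 41.5%. Both marks were present at 914 wide peaks (75.5%; background 31.7%), H3K4me2 alone at 199 (16.4%; background 18.7%), H3K4me1 alone at 36 (2.98%; background 9.84%) and neither at 61 (5.04%; background 39.8%). A longer interval is met by a mark more often whatever it holds, so the same question was asked per base and at the centre of the peak.

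Measured per base, wide peaks were also richer in both marks. H3K4me2 covered 65.4% of the bases of wide peaks, 56.8% of those of peaks of 1000 to 2000 bp, 41.9% for 500 to 1000 bp and 28.7% under 500 bp. For H3K4me1 the values in the same order were 47.5%, 37.4%, 31.0% and 24.7%. Bases with both marks made up 36.1% of wide peaks and 26.8% of peaks of 1000 to 2000 bp. Bases with H3K4me2 alone took similar parts of wide peaks and of peaks of 1000 to 2000 bp, 29.3% and 30.0%, and those with H3K4me1 alone 11.4% and 10.6%. Against peaks under 500 bp, the share with H3K4me2 alone was also larger in wide peaks, at 29.3% and 15.2%. The median wide peak was covered by H3K4me2 over 75.3% of its length (72.0 to 77.4%) and by H3K4me1 over 46.9% (41.9 to 51.6%).

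**Figure D1:**
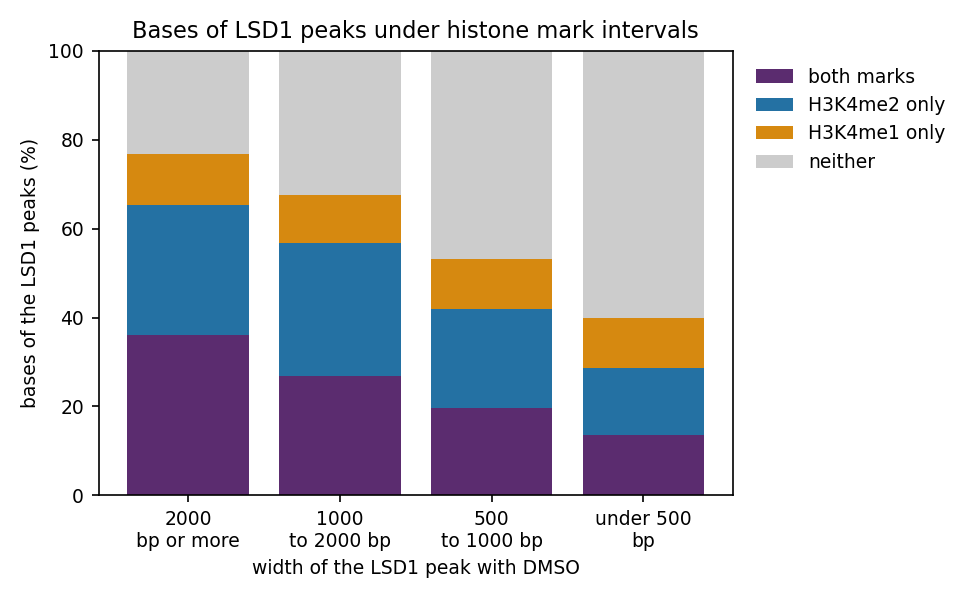
Share of LSD1 peak bases with DMSO (percent, vertical axis) under both marks, H3K4me2 only, H3K4me1 only or neither, for 4 classes of LSD1 peak width (horizontal axis). Bases under both marks make up 36.1% of peaks of 2000 bp or more and bases under neither 23.2%, while in peaks under 500 bp neither takes 60.1%.

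At the peak centre, a measure that does not grow with width, the same order was seen. The centre lay on H3K4me2 in 68.6% of wide peaks (65.9 to 71.1%) and in 57.5% (56.3 to 58.7%) of peaks of 1000 to 2000 bp, a difference of 11.1 points (8.16 to 13.9). It lay on H3K4me1 in 46.1% of wide peaks and 35.9% of peaks of 1000 to 2000 bp, a difference of 10.2 points (7.21 to 13.3). The difference was carried by centres with both marks, at 36.5% and 26.1% (10.5 points, 7.58 to 13.4). Centres with H3K4me2 alone were found in 32.1% and 31.4% of peaks, a difference of 0.621 points (−2.19 to 3.53).

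The marks were arranged differently within wide peaks. H3K4me2 was present at the centre of 68.6% of wide peaks, at 53.7% of peak ends and at 24.0% of positions 1000 bp outside. H3K4me1 was level from centre to end, at 46.1% and 47.9%, and was still present at 32.6% of positions 1000 bp outside and 15.3% at 5000 bp. H3K4me2 was thus the more frequent mark at the centre and at the ends, and H3K4me1 the more frequent one at 1000 bp outside and beyond, at the distances measured. Peaks of 1000 to 2000 bp had the same order, with H3K4me2 at 57.5% at the centre and 23.2% at 1000 bp outside, and H3K4me1 at 35.9% and 28.1%. Within the 914 wide peaks with both marks, the centre lay on both in 442 (48.4%), on H3K4me2 without H3K4me1 in 254 (27.8%), on H3K4me1 without H3K4me2 in 101 (11.1%) and on neither in 117 (12.8%). In 105 of them (11.5%, 9.58 to 13.7%), an H3K4me2 centre without H3K4me1 had H3K4me1 in the outer parts on both sides. In 143 (15.6%, 13.4 to 18.1%) it was in the outer part of 1 side only. All 914 were chosen for meeting H3K4me1, so a centre without it has it elsewhere in the peak. H3K4me1 on both sides is the usual arrangement around active promoters. No annotation of hg19 was used here, so it was not tested whether the 105 were at promoters.

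**Figure D2:**
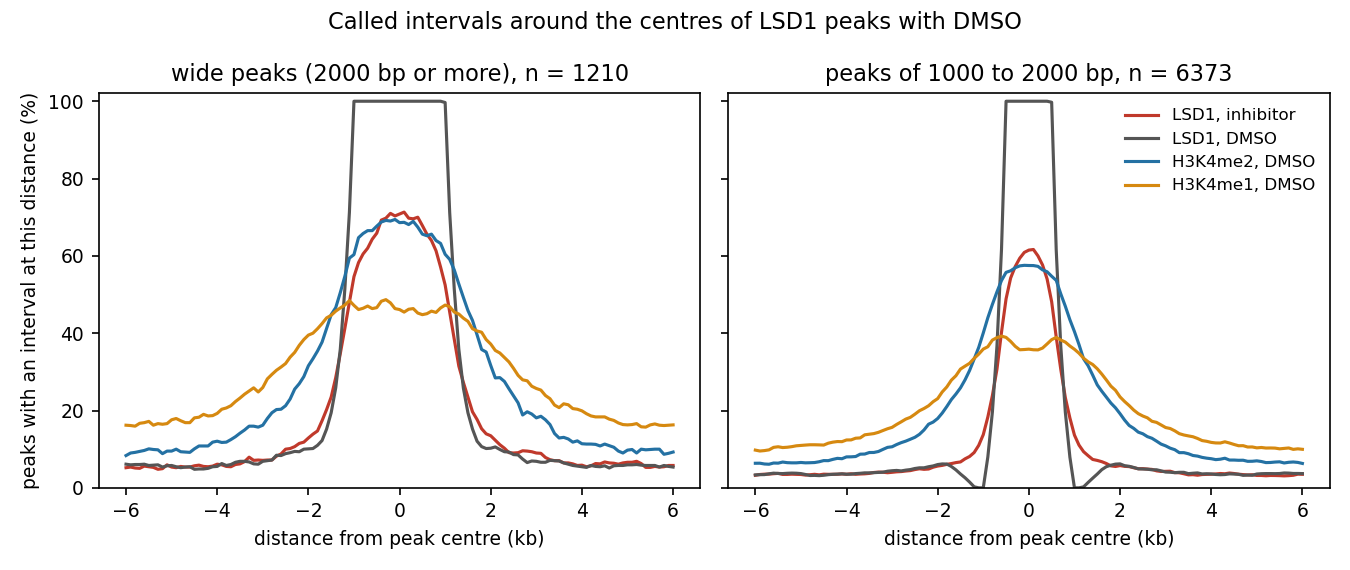
Share of LSD1 peaks with DMSO (percent, vertical axis) that have a called interval of each list at a given distance from the peak centre (kb, horizontal axis), for 1210 wide peaks on the left and 6373 peaks of 1000 to 2000 bp on the right. In wide peaks inhibitor LSD1 and H3K4me2 are at 70.8% and 68.6% at the centre and decline to both sides, and H3K4me1 is at 46.1% at the centre and falls off more slowly.

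Mark intervals inside wide peaks were often several. Of the wide peaks, 731 met 2 or more H3K4me2 intervals (60.4%; background 13.6%) and 561 met 2 or more H3K4me1 intervals (46.4%; background 9.64%), with up to 9 and 6 in a single peak. In peaks of 1000 to 2000 bp these shares were 38% and 26.2%. H3K4me2 had 1.96 called summits per kb of wide peak, against 1.72 per kb in peaks of 1000 to 2000 bp and 1.11 per kb in peaks under 1000 bp. H3K4me1 had 1.31, 0.980 and 0.727 per kb. Summits lie only inside mark intervals, so these values rise with the share of bases covered. Summits per kb of marked sequence were not computed, so nothing is read about how dense summits are within the marks. Wholly covered by H3K4me2 were 126 wide peaks (10.4%; background 16.9%), and by H3K4me1 111 (9.17%; background 13.6%). A longer peak is harder to cover wholly, so these shares do not mean poorer cover per base. Histone domains of 4000 bp or more were met by 115 wide peaks for H3K4me2 (9.50%; background 1.59%) and 169 for H3K4me1 (14.0%; background 3.52%), against 2.92% and 5.87% of peaks of 1000 to 2000 bp. The median of the highest H3K4me2 fold at a wide peak on H3K4me2 was 12.2 (11.9 to 12.6), against 10.7 (10.6 to 11.0) at peaks of 1000 to 2000 bp and 9.01 (8.89 to 9.06) at all peaks under 2000 bp. The highest of several intervals tends to be higher, and wide peaks met several more often, so nothing is read from this order.

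The next comparison asked what became of wide LSD1 peaks after LSD1 inhibition. Almost none disappeared from the list. An inhibitor peak met 1198 of 1210 wide peaks (99.0%, 98.3 to 99.4%), against a background of 63.2% of all LSD1 peaks with DMSO. The share was 90.6% (89.9 to 91.3%) for peaks of 1000 to 2000 bp and 50.9% for those under 500 bp. Here too a longer interval is met more often whatever it holds. The extent was matched less well. Inhibitor peaks covered 2.03 Mb of the 3.20 Mb of wide peaks (63.2%), and the median wide peak was covered over 63.7% of its length (60.9 to 66.1%). Peaks of 1000 to 2000 bp were covered over a median of 54.1% (53.0 to 55.3%). At least 90% of the length was covered in 233 wide peaks (19.3%), which is close to the background of 21.0%.

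Each wide peak was then put in 1 of 5 classes. It was kept when met by a single inhibitor peak and the shorter of both was at least 80% of the longer, narrowed or widened when that single peak was shorter or longer than this allows, split when met by 2 or more inhibitor peaks, and absent when met by none. Narrowed was the largest class with 437 (36.1%, 33.5 to 38.9%; background 23.5%), followed by 361 split (29.8%, 27.3 to 32.5%; background 1.69%) and 328 kept (27.1%, 24.7 to 29.7%; background 16.9%). Widened peaks numbered 72 (5.95%; background 21.1%) and absent peaks 12 (0.992%; background 36.8%). The class uses the width that chose the wide peaks, so nothing is read from these backgrounds.

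The lookup was therefore repeated from the other side, with the 1140 inhibitor peaks of 2000 bp or more looked up in the DMSO list. Narrowing was as frequent in that direction. Of the wide peaks with DMSO 36.1% were narrowed with inhibitor, and of the wide peaks with inhibitor 38.2% were narrowed with DMSO (background 17.3% of all inhibitor peaks), a difference of −2.04 points (−5.94 to 1.86). Kept peaks made up 27.1% and 30.0% (−2.89 points, −6.54 to 0.759), and widened peaks 5.95% and 6.40%. A counterpart of 2000 bp or more was met by 431 wide peaks with DMSO (35.6%) and by 435 wide peaks with inhibitor (38.2%). Among the 837 wide peaks met by a single inhibitor peak, the median width was 1845 bp with inhibitor and 2346 bp with DMSO, and the median ratio of inhibitor over DMSO width was 0.772 (0.749 to 0.810). In the other direction the median ratio of DMSO over inhibitor width was 0.789 (0.756 to 0.827).

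Splitting was the class that differed most between directions, and it depended on how the lists were joined. As deposited, 29.8% of wide peaks with DMSO were split with inhibitor, and 23.2% of wide peaks with inhibitor were split with DMSO, a difference of 6.68 points (3.11 to 10.2). The smallest gap between neighbouring peaks was 557 bp in the inhibitor list and 613 bp in the DMSO list, so gaps of 557 to 612 bp occur in the inhibitor list and not in the DMSO list. With gaps of up to 612 bp closed in the list that was looked up, 24.9% and 23.2% were split, a difference of 1.72 points (−1.74 to 5.16). Closing such gaps in both lists before wide peaks were taken gave 1314 wide peaks with inhibitor, and left the 1210 with DMSO as they were. Then 24.9% of the wide peaks with DMSO and 25.3% of those with inhibitor were split (−0.466 points, −3.84 to 2.92). With gaps of up to 1000 bp closed in both lists, 14.8% of 2264 and 13.7% of 2254 were split (1.13 points, −0.907 to 3.17). The peaks absent from the other list numbered 12 of 1210 with DMSO and 26 of 1140 with inhibitor (0.992% and 2.28%). As deposited, this was a difference of −1.29 points, and its interval does not include 0 (−2.41 to −0.261).

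**Figure D3:**
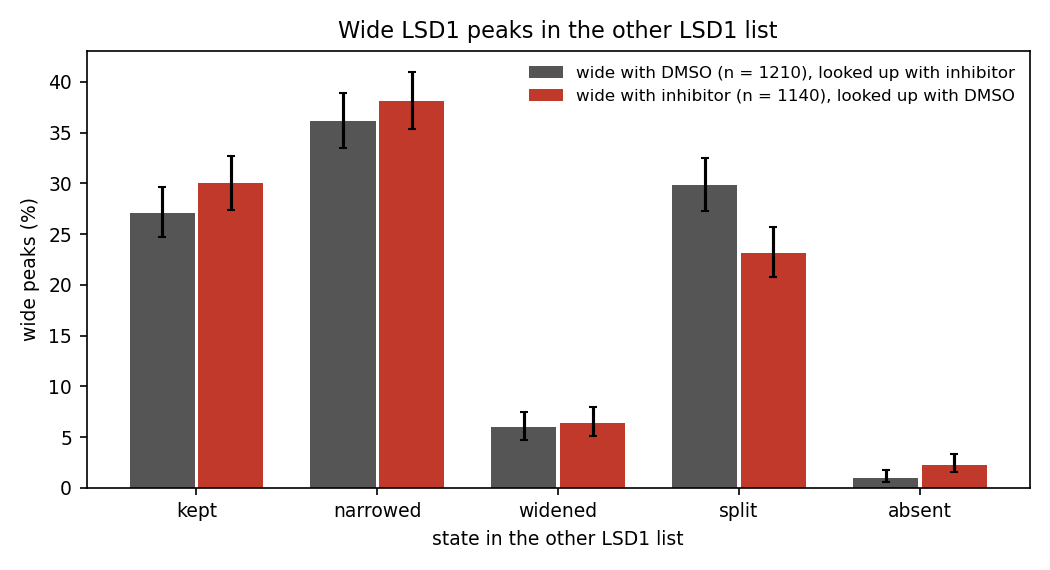
Percent of wide LSD1 peaks (vertical axis, with 95% Wilson intervals) that are kept, narrowed, widened, split or absent in the other LSD1 list (horizontal axis), for 1210 peaks wide with DMSO and 1140 peaks wide with inhibitor. The directions nearly match for narrowed peaks at 36.1% and 38.2%, and the gap in split peaks, 29.8% and 23.2%, is −0.466 points after gaps of up to 612 bp are closed in both lists.

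The 437 narrowed peaks had a median inhibitor width of 1208 bp, against a median DMSO width of 2314 bp. A median of 1241 bp was left outside the inhibitor peak, with a median of 955 bp at the side with the larger loss and 183 bp at the other. At least 80% of the loss was at 1 side in 244 of 437, which is given as a description since the sides are ordered by their loss, and in 110 the inhibitor peak reached or passed 1 end. Split peaks were broken by 387 gaps in all, with a median of 780 bp (754 to 832) and a range of 557 to 2752 bp. Most split peaks had 2 pieces (337 of 361), 22 had 3 and 2 had 4. Split wide peaks had a median width of 2673 bp with DMSO, against 2452.5 bp for kept ones. The share split was 54.9% (48.5 to 61.1%) among the 235 wide peaks of 3000 bp or more. Among the 72 widened peaks, the inhibitor peak also met another DMSO peak in 33.

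The sequence still covered with inhibitor differed in its marks from the rest of the wide peaks. H3K4me2 covered 70.8% of wide-peak bases under an inhibitor peak and 56.1% of the bases outside one. H3K4me1 covered 46.9% and 48.6%. Read the other way, inhibitor peaks lay over 72.6% of bases with H3K4me2 alone and 65.2% of bases with both marks, against 53.9% of bases with H3K4me1 alone and 53.1% with neither. In peaks of 1000 to 2000 bp these shares were 64.4%, 55.6%, 43.6% and 49.0%. Within single wide peaks with at least 100 bp in both parts, H3K4me2 covered more of the part under inhibitor LSD1 in 489 of 1035, less in 362 and the same in 184, a mean difference of 7.96 points. H3K4me1 covered more of that part in 272, less in 460 and the same in 303, a mean difference of −5.95 points. H3K4me2 is also centred in wide peaks, as is inhibitor LSD1, which covered 70.6% of the middle parts of wide peaks and 59.6% of the outer parts, and the part of this position in the difference was not tested.

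Wide peaks with H3K4me2 were covered by inhibitor peaks over more of their length than those without it. The median wide peak was covered by inhibitor LSD1 over 65.1% of its length (62.1 to 68.2%) with both marks and 67.9% (60.6 to 73.1%) with H3K4me2 alone, against 46.3% (31.1 to 56.2%) with H3K4me1 alone and 40.6% (30.7 to 51.5%) with neither. Narrowed peaks made up 33.0% of wide peaks with both marks, 38.7% with H3K4me2 alone, 63.9% with H3K4me1 alone and 57.4% with neither. The share narrowed was 24.3 points lower with both marks than with neither (difference −24.3, −36.3 to −11.5) and 25.2 points lower with H3K4me2 alone than with H3K4me1 alone (−25.2, −40.3 to −7.47). Kept peaks were 27.6%, 32.7%, 8.33% and 13.1% of these classes in the same order. These classes rest on 914, 199, 36 and 61 wide peaks. The lookup from the other side was not repeated by mark. The part of choosing wide peaks in the DMSO list in these differences was therefore not tested.

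Wide peaks with neither mark were called with similar strength to the others with DMSO. Their median −log10 q was 2.85, against 2.97 with both marks, 2.32 with H3K4me2 alone and 2.86 with H3K4me1 alone, and their median fold was 4.02. The share split was 32.7% with both marks, against 20.1% with H3K4me2 alone (12.6 points, 5.82 to 18.5). The other differences had intervals that include 0, against 22.2% with H3K4me1 alone (10.5 points, −5.65 to 21.4) and 23.0% with neither (9.76 points, −2.56 to 19.1). The median width was 2445.5 bp with both marks and 2368 bp with H3K4me2 alone. Wider peaks were split more often, and the part of width in the difference between these classes was not tested. Wide peaks with 2 or more H3K4me2 intervals were split in 32.6% of cases and those with 0 or 1 in 25.7%, a difference of 6.88 points (1.62 to 12.0). Their median widths were 2486 and 2342 bp, and the part of width in this difference was not tested. Sorted by H3K4me1 intervals in the same way, 32.3% and 27.7% were split, and the interval of the 4.53-point difference includes 0 (−0.637 to 9.70). In split peaks, H3K4me2 covered 66.1% of the gaps and 69.5% of the pieces, and H3K4me1 covered 57.3% of the gaps and 50.9% of the pieces.

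**Figure D4:**
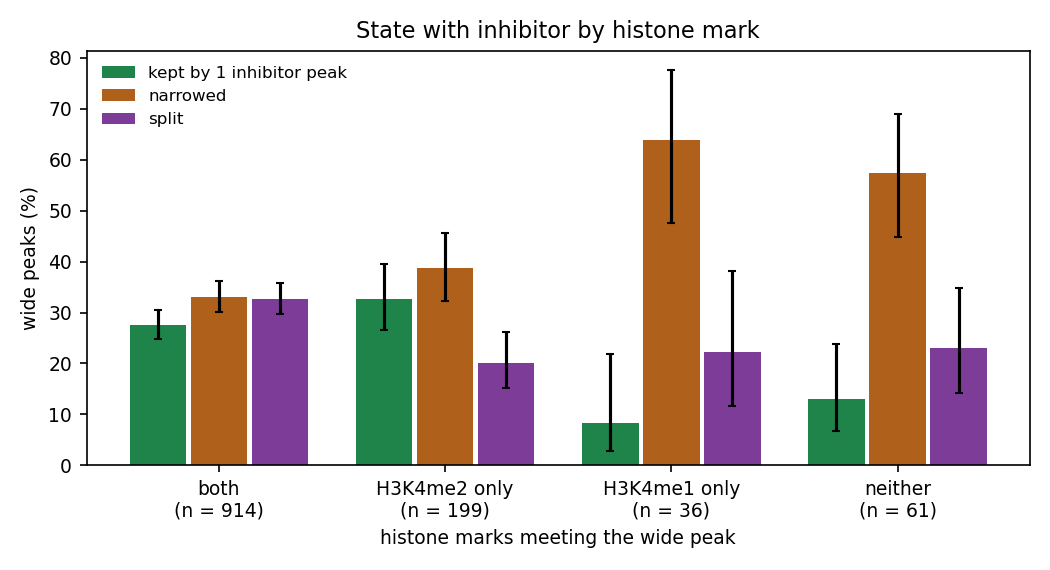
Percent of wide LSD1 peaks with DMSO (vertical axis, with 95% Wilson intervals) that are kept, narrowed or split with inhibitor, by the histone marks that meet them (horizontal axis). Narrowed peaks are 63.9% of those with H3K4me1 alone and 57.4% of those with neither mark, against 33.0% with both marks.

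The 10 widest peaks carried at least 1 mark each. Both marks met 9 of them and H3K4me2 alone met 1. With inhibitor, 4 were kept and 6 were split, and inhibitor peaks covered from 54.1% to 99.1% of their length. Of these, 3 lay in stretches of chromosome 2 where background was raised, which are described after them.

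The widest of all was chr2:15514913-15525602. A single inhibitor peak of 10599 bp lay there, against 10690 bp with DMSO, and both marks covered it fully. Its fold with DMSO was 2.02, against a median of 3.61 over all DMSO peaks. The inhibitor peak had a fold of 1.85 in its own list, and the folds are not compared between lists. The second, chr2:16344140-16351566, was met by an inhibitor peak of 7015 bp, against 7427 bp with DMSO, with H3K4me2 over 24.0% of its length and H3K4me1 over 63.4%. The fifth, chr2:15697918-15704018, was split into inhibitor peaks of 707 and 4340 bp, against 6101 bp with DMSO, and H3K4me2 covered all of it.

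Outside chromosome 2, the widest was chr11:133936094-133943488. It was split into inhibitor peaks of 884 and 4734 bp, against 7395 bp with DMSO, and H3K4me2 covered 93.6% and H3K4me1 92.3% of it. The peak at chr3:156819198-156825410 held the most mark intervals, with 9 of H3K4me2 over 59.8% of its length and 3 of H3K4me1 over 89.5%. With inhibitor it became peaks of 2857 and 1186 bp around a gap, against 6213 bp with DMSO.

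Several of the widest peaks had more H3K4me1 than H3K4me2. This was common among the 914 wide peaks with both marks: 416 (45.5%) had more bases under H3K4me1 and 478 (52.3%) more under H3K4me2. The peak at chr6:36306686-36312340 was covered over 33.4% by H3K4me2 and 85.8% by H3K4me1, and its inhibitor peaks of 1808 and 1254 bp covered 54.1%, the least among the 10. The peak at chr21:34508151-34513527 had 45.4% and 88.8%, and was split into 3 inhibitor peaks of 860, 931 and 2025 bp. The peak at chr4:40700170-40705675, with 48.9% and 74.7% in 4 and 6 intervals, was kept as a single inhibitor peak of 4784 bp, against 5506 bp with DMSO. The peak at chr17:29153477-29159002 had 33.5% and 47.1% and was split into 1981 and 1516 bp.

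The peak at chr1:145394941-145400339 was the exception among the 10, with H3K4me2 over 73.6% of its length and no H3K4me1. It was kept as an inhibitor peak of 4726 bp, against 5399 bp with DMSO. By score it ranked 1690 in the DMSO list, with a fold of 4.50. The inhibitor peak ranked 535 in its own list, with a fold of 5.81, and the folds are not compared between lists. The next widest kept peak, chr6:1606862-1612116, was met by an inhibitor peak of 5094 bp, against 5255 bp with DMSO, and was covered by H3K4me2 over 84.6% and H3K4me1 over 49.2%.

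**Figure D5:**
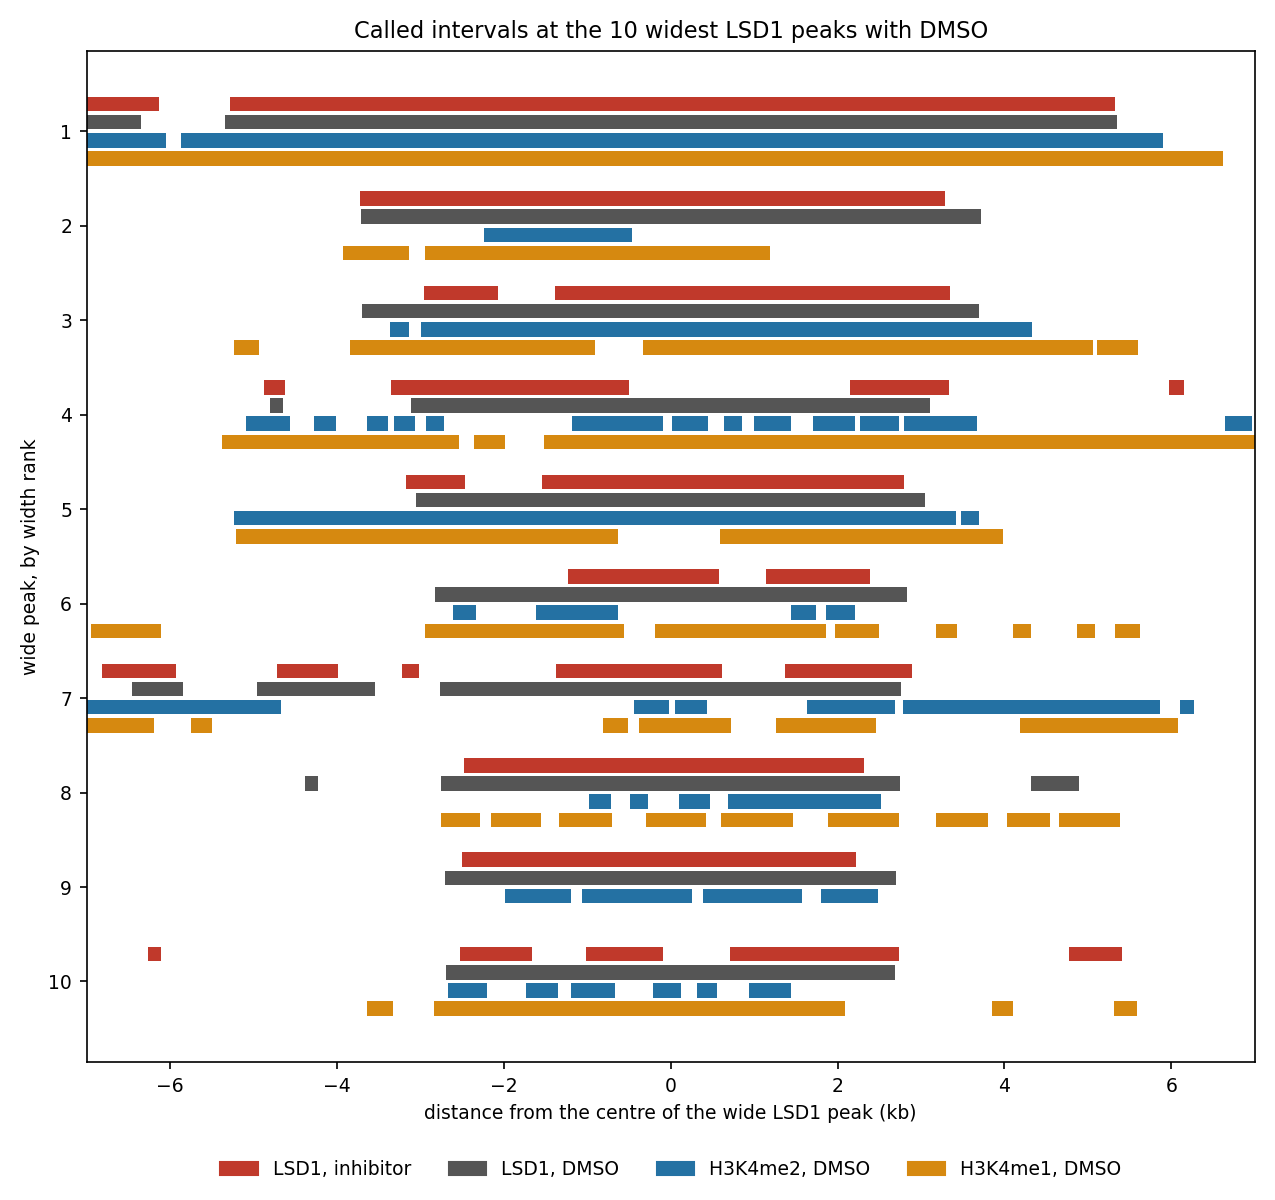
Called intervals at the 10 widest LSD1 peaks with DMSO, ordered by width down the page, with LSD1 with inhibitor, LSD1 with DMSO, H3K4me2 and H3K4me1 from top to bottom in each; the horizontal axis is distance from the centre of the wide peak in kb. The inhibitor intervals run unbroken in 4 of the 10 and are broken in 6, and the ninth has no H3K4me1.

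Wide peaks were frequent in stretches of raised background. Fold and p-value together imply a background level for each peak, and a raised stretch is a run of 10 or more successive peaks, pooled over the 4 lists, in which that level exceeded 6 times its list's median. They held 23 of the 1210 wide peaks (1.90%), against 0.248% of narrower peaks. Of these 23, 20 lay on chromosome 2 and 3 on chromosome 6. In the longest stretch, chr2:15400551-16411346, 16 of 95 LSD1 peaks were wide. Their median width was 3819 bp, against 2415 bp for the other wide peaks, and their median fold was 2.27, against 3.94. With inhibitor, 15 of the 23 were kept, 4 were split, 3 were narrowed and 1 was widened, and the median coverage was 89.3% (76.8 to 95.7%), against 63.2% (60.6 to 65.5%) for the other wide peaks. The part of the raised background in their width was not tested.

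The wide peaks with the highest scores were a mixed group. The first, chr17:28637118-28640261, had no mark, a fold of 8.97 and a −log10 q of 20.7 with DMSO. It was met by a single inhibitor peak of 906 bp, against 3144 bp with DMSO, and that short peak ranked 8 in the whole inhibitor list with a fold of 7.29. The second, chr11:72915953-72919034, also had no mark, and an inhibitor peak of 2489 bp met it, against 3082 bp with DMSO. The third, chr3:195443852-195447810, was covered by H3K4me2 over 17.2% and H3K4me1 over 42.2% and was split into inhibitor peaks of 154 and 3170 bp. The other two, chr2:16152282-16156995 and chr2:15460991-15463962, lay in the raised stretch, and the second of them had neither mark. Of the 5, 3 had no mark, while 61 of all 1210 had none.

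Of the 24 wide peaks met by 3 or more inhibitor peaks, 20 carried both marks, 2 carried H3K4me2 alone and 2 neither. Over all 1210 wide peaks these classes made up 75.5%, 16.4% and 5.04%, so nothing is read from the 24. The widest of those with most pieces, beside the one on chromosome 21, follow. The peak at chr5:139085333-139090409 was met by 4 inhibitor peaks of 1946, 426, 1084 and 1337 bp, against 5077 bp with DMSO, and had 5 H3K4me2 intervals over 77.4% and 3 H3K4me1 intervals over 89.95% of its length. The peak at chr22:26946682-26951331 was met by 4 inhibitor peaks of 262, 187, 562 and 1365 bp, against 4650 bp with DMSO. Those at chr6:10381622-10386731 and chr16:759043-764057 had 3 pieces each, covering 54.4% and 46.5% of them. H3K4me2 covered 93.1% of the chromosome 6 peak and 15.9% of the chromosome 16 peak.

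The 61 wide peaks with neither mark were set beside narrower unmarked peaks. Their median distance to the nearest mark interval was 8638 bp, with a range of 9 to 44252 bp, and 35 of 61 lay within 10 kb of one (57.4%). For the 851 unmarked peaks of 1000 to 2000 bp the median was 7557 bp, and 478 lay within 10 kb (56.2%). Of the 5 widest, 3 were on chromosome 19, at chr19:4571151-4574667, chr19:49562965-49566198 and chr19:852872-856025. Inhibitor peaks covered 26.4%, 17.3% and 67.0% of these, each in 2 pieces. The peak at chr12:110253033-110256180 was likewise split into 2, covering 50.3%. The remaining peak, on chromosome 17, was the one described above with the highest score.

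The 12 wide peaks with no inhibitor peak were among the weaker ones. Their widths ran from 2008 to 3347 bp and their −log10 q had a median of 1.80, with 1 of 12 at 2 or more, against 81.9% of all wide peaks. The widest, chr7:854591-857937, was covered by H3K4me2 over 74.4% of its length with no H3K4me1, and the nearest inhibitor peak was 55105 bp away. The next, chr8:25902106-25904878, was covered over 93.3% by H3K4me2 and 26.7% by H3K4me1. The peak at chr20:36011076-36013339 had no mark, and those at chr9:117373379-117375537 and chr1:1141471-1143619 had both. An inhibitor peak lay within 5 kb of 8 of the 12, the nearest at 428 bp. Of the 12, 6 had both marks, 2 had H3K4me2 alone, 1 had H3K4me1 alone and 3 had neither.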

How the data were processed

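Peak lists were used for 4 ChIP-seq libraries, 1 per group, grouped by the sample descriptions. BWA, Picard and MACS2 2.0 on hg19 are named in the submitters' processing notes; the sources used here give no settings, control, duplicate rule or depth. All samples carry 1 treatment text, taken here to describe the GSK552 libraries. Per the layout of the deposited files, LSD1 lists are broad peaks and histone lists narrow peaks with several summits, which were reduced to distinct intervals. The deposited score is 10 times the −log10 q. The deposited fold is a ratio over the caller's background, and the −log10 of p and of q is likewise the authors'.

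Wide peaks have an end minus start of 2000 bp or more. Overlap meant at least 1 bp. Bases were sampled every 10 bp. Raised background used a pseudocount of 1. Alternatives changed the width, q, overlap, class limits, mark intervals, joining and chromosomes. The 2 inputs were not used. Regions named are the 10 widest, the 5 of highest score, with most inhibitor peaks, absent, unmarked and kept (widest first), and 3 on each side of 2000 bp; the densest groups of wide peaks, joined over 10 kb, were picked with their values in view. The members and lists were chosen with earlier results of these data known. The gene table at hand is on another build, so no gene or sequence is given. Overlaps and classes were tested on simulated peaks. Python 3.11.15, pandas 2.3.3, scipy 1.17.1 and matplotlib 3.10.9 were used.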

Additional observations from a re-analysis of the deposited data

How the results depend on the processing

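Of 94 values recomputed, 53 stayed within their intervals or, for the number of wide peaks, within 1.5 times 1210, among them every value on chromosomes 1 to 22 only, without raised stretches, and with LSD1 peaks joined over 500 bp, which is below the smallest gap and changes nothing. With peaks of 1500 bp or more, 2942 were wide, 96.9% were overlapped with inhibitor, 18.9% split and 43.2% narrowed (44.4% in the other direction); 89.0% were on H3K4me2, 72.7% on H3K4me1 and 6.80% on neither, with median covers of 60.3% (inhibitor) and 37.0% (H3K4me1). With 3000 bp or more, 235 were wide, 99.6% overlapped, 54.9% split and 18.3% narrowed (23.6% in the other direction), 96.2%, 87.7% and 2.98% were on those marks, and inhibitor cover was 68.6%. Requiring a −log10 q of 2 gave 991 wide peaks, 22% split, 41.2% narrowed, 81.3% on H3K4me1 and H3K4me1 cover of 51.8%. Requiring 10% overlap gave 97.5% overlapped, 19.8% split, 44.1% narrowed (45.0% in the other direction), 89.1% on H3K4me2 and 73.4% on H3K4me1. Calling 50 to 200% of the width kept gave 52.0% kept and 16.9% narrowed (16.0% in the other direction). The 50% of mark intervals with the highest scores gave 85.7%, 69.2% and 7.19% on H3K4me2, H3K4me1 and neither, with covers of 69.8% and 37.4%. Joining the inhibitor list over 1000 bp gave 8.26% split, 35.95% kept and 74.95% cover, and over gaps shorter than any in the DMSO list 24.9% split. Leaving out raised stretches, joining both lists, and the joining over 1000 bp and over gaps shorter than any in the DMSO list were chosen after seeing the data. No paired analysis was possible because single libraries leave nothing to pair. Depth is unknown, so a missing weak peak is not shown to be absent. Where no construction explains a change, the cause was not tested.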

Other observations

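Of the 1140 inhibitor peaks of 2000 bp or more, 26 met no LSD1 peak with DMSO. H3K4me2 met 25 of these 26 and H3K4me1 met 15, both as mapped with DMSO, and 1 met neither. Their widths ran from 2003 to 3446 bp with a median of 2172 bp. The widest was chr20:46110226-46113671, with a fold of 3.74, 1 H3K4me2 interval and 4 H3K4me1 intervals. The next were chr21:34913624-34916993, of 3370 bp, and chr8:81080988-81084007, of 3020 bp. Over all 1140, H3K4me2 met 97.1%, H3K4me1 76.6% and neither 1.49%.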
